A study of Rattus norvegicus with 5 samples.

Results

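Macrophages are the most numerous immune cells of fat, and this account follows 36 of their marker and activation genes in the mesenteric fat next to the pancreas, in rats fed 1 of 2 diets. A member was taken as measured where the array annotation gave a probe set that symbol and no other, and the brightest such probe set stood for the gene. By this rule 30 of the 36 genes were measured, among 14217 genes with a probe set of their own. Timd4, Vsig4, Siglec1, Spi1, Marco and Msr1 were not analysed here. The members were chosen by name, with earlier results of these data known.

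The fat came from male Wistar rats that were 7 weeks old when the diets began. In the standard group 3 samples came from rats given chow with 8% of calories as fat, and in the cafeteria group 2 samples came from rats given a palatable mixed diet with 66% of calories as fat, each for 30 days. The labels call the standard group lean and the cafeteria group obese, and describe the samples as independent, without saying how many animals each held. RNA of whole tissue was hybridised to Affymetrix rat genome arrays, 1 sample per array, so a level is the sum over every cell type in the piece of tissue. The number of macrophages, the RNA per macrophage and the share of other cells cannot be told apart in such samples.

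Tissue macrophages depend on the growth factor receptor Csf1r and on the transcription factor PU.1, which the gene Spi1 encodes. In lean fat most of them carry Mrc1 (CD206), Cd163 and often Lyve1, and they clear debris and hormones around vessels. In obesity of mice and humans a second kind, the lipid-associated macrophage, gathers around dying fat cells and makes Trem2, Gpnmb and the integrin Itgax (CD11c). Trem2 is a lipid receptor with no signalling tail of its own, and it passes its signal through the adaptor Tyrobp (DAP12). The comparison asked how the resident, lipid-associated and general markers stood in the 2 diets.

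The promoters of the members are shown first. RefSeq's windows for the rat build GRCr8, from 250 bases before to 50 after each gene's start, matched 20 of the 30 measured members. The motifs searched, on both strands, were the PU.1 core GAGGAA, its longer form GAGGAAG, which contains it, the palindrome of STAT6, CACGTG for MITF and TFEB, and TGACTCA for AP-1. GAGGAAG was found in 12 of the 20 windows (60%) and in 12.4% of all 33469 windows. The core was found in 14 of them (70%) and in 27.6% of all windows. TGACTCA was in 3, those of Cd68, Gpnmb and Itgax, against 4.63% of all windows, the STAT6 motif was in 1, that of Lyve1, against 7.28%, and CACGTG was in 0 against 6.42%. A match describes letters in a window and is not a measured binding site.

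The 5 windows below are those of a general marker (Cd68), a lysosomal protease (Ctss), a lipid-associated marker (Trem2) and 2 resident markers (Mrc1 and Lyve1), with GAGGAAG or its reverse complement in capitals. Each is given 5′ to 3′ along its gene. They lie at chr10:54882392-54882691 on the minus strand, chr2:185775146-185775445 on the plus strand, chr9:20151730-20152029 on the minus strand, chr17:82157475-82157774 on the plus strand and chr1:174410928-174411227 on the minus strand.
Cd68: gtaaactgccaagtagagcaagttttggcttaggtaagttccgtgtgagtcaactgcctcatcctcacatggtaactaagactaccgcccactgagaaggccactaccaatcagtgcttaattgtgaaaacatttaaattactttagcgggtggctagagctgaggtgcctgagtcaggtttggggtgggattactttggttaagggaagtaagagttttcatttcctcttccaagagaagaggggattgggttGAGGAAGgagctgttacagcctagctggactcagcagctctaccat
Ctss: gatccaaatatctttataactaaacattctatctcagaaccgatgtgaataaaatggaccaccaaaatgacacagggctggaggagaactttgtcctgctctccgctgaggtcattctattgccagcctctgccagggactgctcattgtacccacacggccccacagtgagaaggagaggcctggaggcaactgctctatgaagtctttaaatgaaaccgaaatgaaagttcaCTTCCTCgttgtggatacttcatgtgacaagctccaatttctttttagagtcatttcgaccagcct
Trem2: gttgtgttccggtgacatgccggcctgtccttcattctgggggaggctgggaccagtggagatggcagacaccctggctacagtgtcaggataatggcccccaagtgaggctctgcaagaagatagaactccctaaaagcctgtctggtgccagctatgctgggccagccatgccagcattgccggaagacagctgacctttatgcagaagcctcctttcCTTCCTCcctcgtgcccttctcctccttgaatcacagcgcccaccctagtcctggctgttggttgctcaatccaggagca
Mrc1: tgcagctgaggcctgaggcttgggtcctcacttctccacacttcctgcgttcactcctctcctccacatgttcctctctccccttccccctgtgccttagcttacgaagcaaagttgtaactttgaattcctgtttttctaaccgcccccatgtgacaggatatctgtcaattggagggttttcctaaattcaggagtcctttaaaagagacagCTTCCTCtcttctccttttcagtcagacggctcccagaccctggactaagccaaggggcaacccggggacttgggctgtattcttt
Lyve1: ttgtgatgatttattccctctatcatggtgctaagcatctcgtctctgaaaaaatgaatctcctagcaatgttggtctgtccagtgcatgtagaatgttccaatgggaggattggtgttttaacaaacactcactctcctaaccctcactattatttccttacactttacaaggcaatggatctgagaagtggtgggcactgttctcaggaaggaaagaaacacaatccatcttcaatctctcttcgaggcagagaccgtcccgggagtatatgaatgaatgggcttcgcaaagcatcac
The longer motif began 16 bases before the start of Ctss, 30 before that of Trem2 and 36 before that of Mrc1, each on the opposite strand. In Cd68 it began 4 bases past the start, on the gene's own strand. The Lyve1 window held neither form of the PU.1 motif. Trem2 read higher and Ctss lower in cafeteria samples, as their values below show, and neither was called after adjustment. Any link between the motif and these levels was not tested.

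Across all members the levels were lower in cafeteria samples for 27 of 30 genes (90%), against 50.9% of all 21729 probe sets tested. The 3 genes that were higher were Trem2, Arg1 and Nos2. The median difference, cafeteria minus standard on the log2 scale, was -0.36 over the members and -0.0036 over all probe sets tested. All 30 measured members passed the filter on dim probe sets. With adjustment over all probe sets, no member was called (limma, adjusted p from 0.317 to 0.891), nor was any other probe set, 0% of those tested. At an unadjusted p under 0.05, limma gave 1 member lower (3.33%, against 6.62% of all probe sets) and 2 higher (6.67%, against 6.05%). The shares of members at that p were thus close to or under the background, while the share of members with a lower level stood above its own. The members are read from the same 5 arrays and are not independent of each other.

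The arrays of a diet differed among themselves about as much as the diets did. Relative to each gene's mean over the 5 arrays, the members averaged 0.31, 0.18 and -0.16 in standard replicates 1, 2 and 3, and 0.01 and -0.34 in cafeteria replicates 1 and 2. Standard replicate 3 therefore lay below cafeteria replicate 1. The difference of these means was -0.27, beside a pooled standard deviation within diets of 0.24. Cafeteria replicate 2 was below all 3 standard arrays for 22 of 30 members, against 29.3% of all probe sets, and cafeteria replicate 1 for 5 of 30, against 28.6%. Cafeteria replicate 2 was under cafeteria replicate 1 for 26 of 30 members, against 42.9%, and was the lowest of the 5 arrays for 22, against 23.0%. Standard replicate 3 was the lowest standard array for 24 of 30 members, against 31.8%, and standard replicate 1 was the highest of all arrays for 20 of 30, against 20.9%. The diets did not overlap for 3 members that were lower (10%, against 14.1% of all probe sets), Clec10a, Ctss and Laptm5, and for the 3 that were higher (10%, against 13.3%). Without cafeteria replicate 2 there were 24 members lower and 6 higher, and without standard replicate 1 there were 24 lower and 5 higher. The median over the members was -0.58 with cafeteria replicate 1 left out and -0.17 with cafeteria replicate 2 left out.

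**Figure D1:**
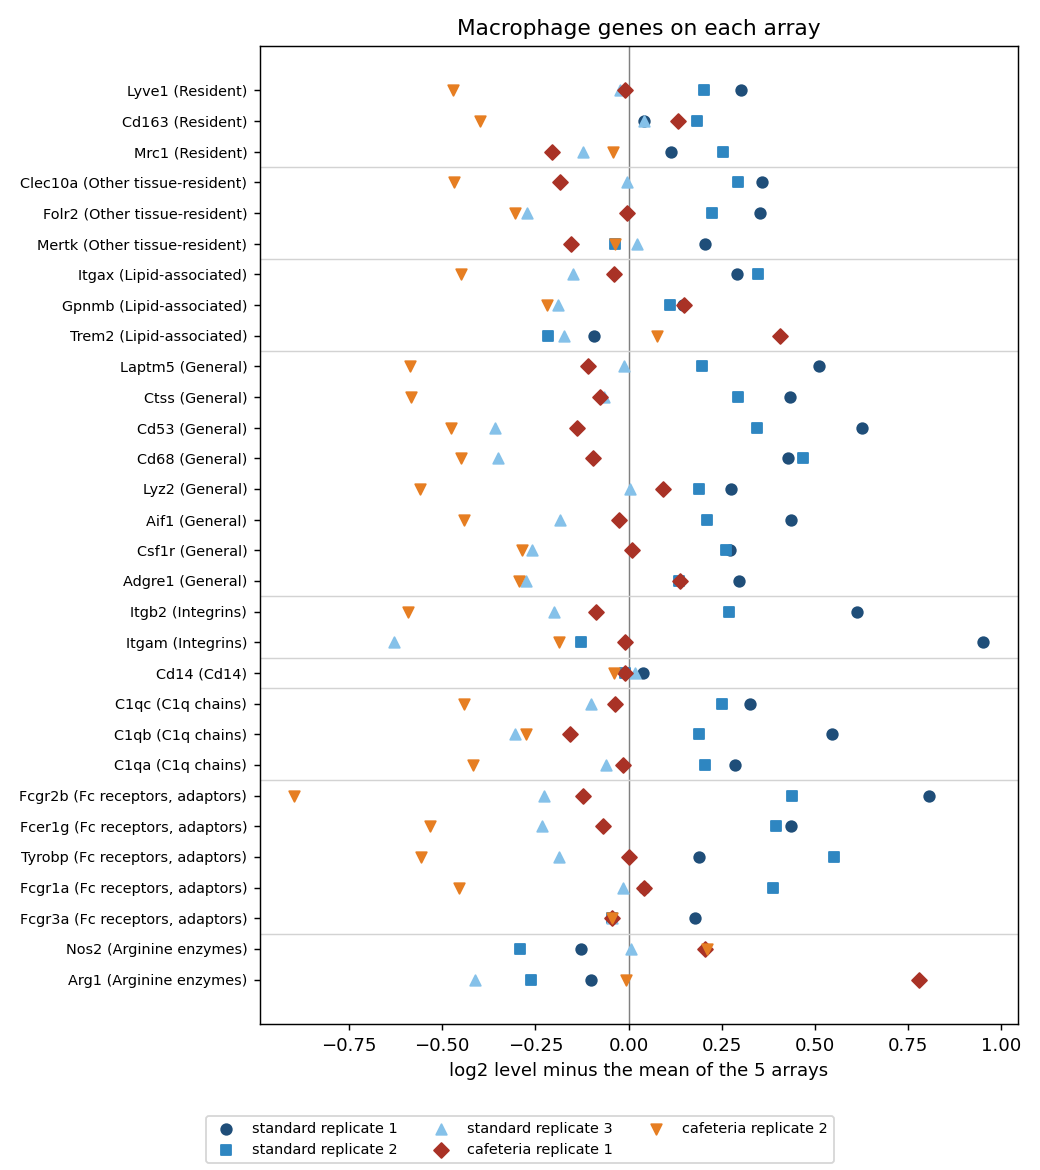
Each row is 1 of the 30 measured macrophage genes, and the horizontal axis gives its log2 level on each array minus its mean over the 5 arrays; symbols and colours stand for arrays. Cafeteria replicate 2 was the lowest array for 22 genes and standard replicate 1 the highest for 20, while Trem2, Arg1 and Nos2 have both cafeteria arrays to the right of the 3 standard arrays.

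Among the resident markers, the mannose receptor Mrc1 read 10.02, 10.16 and 9.79 in standard replicates 1, 2 and 3 and 9.70 and 9.87 in cafeteria replicates 1 and 2. Cafeteria replicate 2 lay above standard replicate 3, so the diets overlapped. The difference was -0.21 ± 0.13 (SE), with a 95% interval of -0.56 to 0.15 (limma, adjusted p = 0.517). Cd163, the receptor that takes up haemoglobin bound to haptoglobin, read 8.37, 8.51 and 8.37 in standard samples and 8.46 and 7.93 in cafeteria samples. Its difference of -0.22 ± 0.17 rested on cafeteria replicate 2, without which it was 0.04. Lyve1, a hyaluronan receptor, read 11.48, 11.38 and 11.15 in standard samples and 11.17 and 10.71 in cafeteria samples. Cafeteria replicate 1 and standard replicate 3 were nearly level on it, and the difference was -0.40 ± 0.18, or 1.32-fold (limma, adjusted p = 0.453). A second Lyve1 probe set gave -0.38 ± 0.19 and no overlap between diets. There too cafeteria replicate 1 (10.88) and standard replicate 3 (10.90) were nearly level, and the difference was -0.08 without cafeteria replicate 2. The median of the 3 genes was -0.22.

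Lyve1 is also made by lymphatic endothelium. Of 6 lymphatic markers 5 passed the filter, 3 lower and 2 higher in cafeteria samples. Mmrn1, an extracellular protein of lymphatic vessels, differed by -0.37 ± 0.08 and the lymphatic master regulator Prox1 by 0.17 ± 0.10, while Flt4 was below the filter. The list averaged 8.02 to 8.10 in cafeteria and 8.18 to 8.22 in standard samples, and its part in the Lyve1 values was not tested.

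The other markers of tissue-resident cells were also lower. Clec10a, a lectin for galactose-type sugars, had the smallest p of any member, and it read 9.93, 9.87 and 9.57 in standard samples and 9.39 and 9.11 in cafeteria samples. Both cafeteria arrays lay below every standard array. The difference was -0.54 ± 0.15, with an interval of -0.95 to -0.14, or 1.46-fold (limma, unadjusted p = 0.0196, adjusted p = 0.317). An exact permutation test, two-sided, gave p = 0.2, and 0.1 is the smallest that 2 samples against 3 allow. Folr2, a folate receptor of perivascular macrophages, differed by -0.26 ± 0.23 with overlapping diets. Mertk, a kinase receptor for dying cells, stood at -0.16 ± 0.10, with -0.28 ± 0.20 from a second, dimmer probe set.

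The 3 lipid-associated markers went apart. Trem2 read 5.92, 5.79 and 5.83 in standard replicates 1, 2 and 3 and 6.41 and 6.08 in cafeteria replicates 1 and 2. The standard samples lay close together, and both cafeteria samples lay above them. The difference was 0.40 ± 0.12, with an interval of 0.09 to 0.71, or 1.32-fold (limma, unadjusted p = 0.0218, adjusted p = 0.322; exact permutation test, two-sided, p = 0.1, the smallest possible). Cafeteria replicate 2 alone gave 0.24 and cafeteria replicate 1 alone 0.57 against the standard samples. A second, dimmer Trem2 probe set differed by 0.57 ± 0.28, with 5.55 and 4.71 in cafeteria samples and 4.35 to 4.71 in standard samples, so there only cafeteria replicate 1 stood out.

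Gpnmb, a membrane glycoprotein of lysosome-rich macrophages, read 9.66, 9.62 and 9.32 in standard samples and 9.66 and 9.29 in cafeteria samples. These values overlapped fully, and the difference was -0.06 ± 0.17, with an interval of -0.50 to 0.38. It turned to 0.13 without cafeteria replicate 2 and to 0.0050 without standard replicate 1. Itgax read 6.36, 6.41 and 5.92 in standard samples and 6.03 and 5.62 in cafeteria samples, a difference of -0.41 ± 0.21. The median of the 3 genes was -0.06, beside -0.22 for the resident markers and -0.42 for the general ones. With only cafeteria replicate 2 it was -0.24 and with only cafeteria replicate 1 it was 0.13, so the median of these 3 genes had no settled sign. The differences between these medians were not tested.

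**Figure D2:**
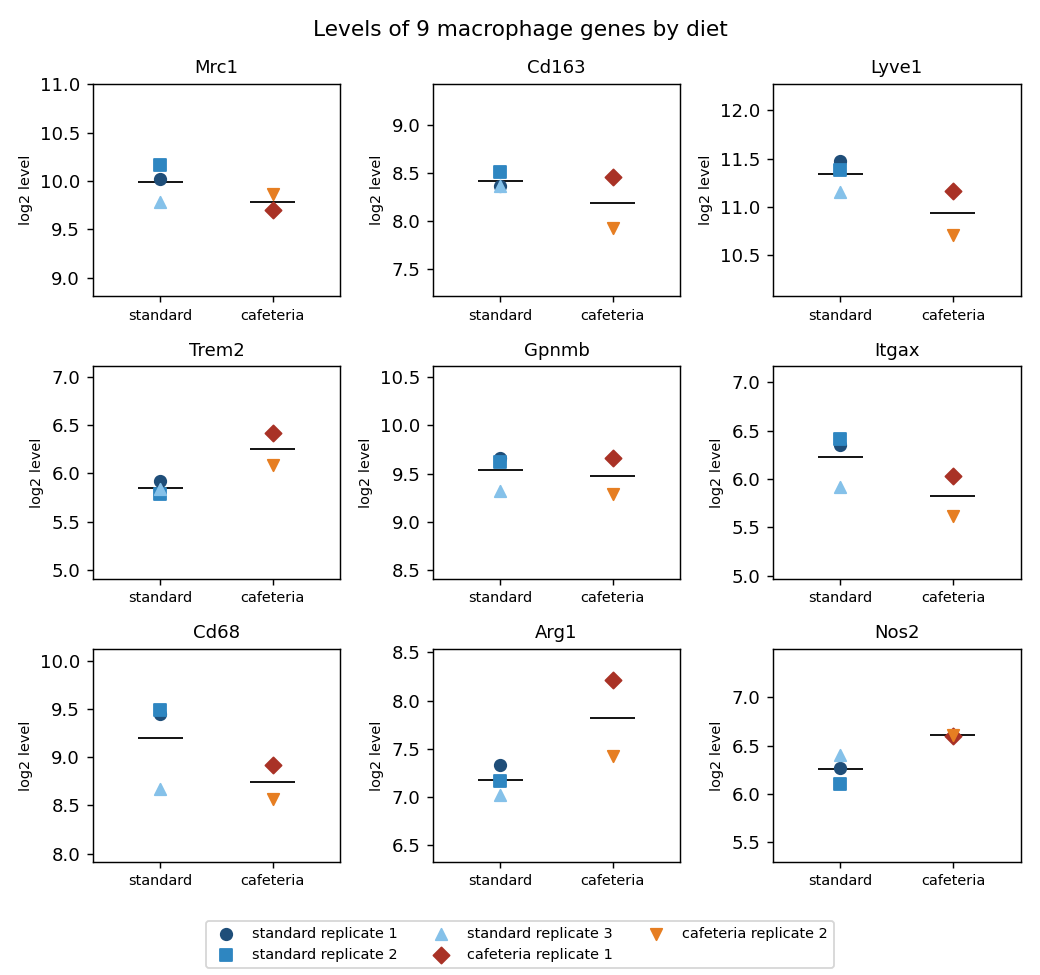
Log2 levels of 9 genes on the 5 arrays, by diet, with the same span of the vertical axis in each panel; symbols and colours stand for arrays and horizontal lines for diet means. Trem2, Arg1 and Nos2 have both cafeteria values above all standard values, while Mrc1, Cd163, Lyve1, Gpnmb, Itgax and Cd68 overlap between diets.

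The 8 general markers measured were each lower in cafeteria samples, with a median of -0.42. They ranged from -0.58 for Laptm5 to -0.13 for Adgre1. Markers of other leukocytes were also lower, as given below, and their part in these values was not tested. The lysosomal membrane protein Cd68 read 9.45, 9.49 and 8.67 in standard samples and 8.92 and 8.57 in cafeteria samples. Standard replicate 3 lay below cafeteria replicate 1, and the difference was -0.45 ± 0.30. Ctss, the cathepsin that trims the class II invariant chain, read 11.23, 11.10 and 10.74 in standard samples and 10.73 and 10.22 in cafeteria samples. Its difference of -0.55 ± 0.22 came with diets that did not overlap, although cafeteria replicate 1 and standard replicate 3 were nearly level. Laptm5, a lysosomal membrane protein of blood cells, read 10.20, 9.89 and 9.68 in standard samples and 9.58 and 9.10 in cafeteria samples, and differed by -0.58 ± 0.22 (limma, adjusted p = 0.401). Its dimmer probe set gave -0.48 ± 0.24 with overlapping diets.

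The remaining general markers overlapped between diets. The tetraspanin Cd53 differed by -0.51 ± 0.33, lysozyme (Lyz2) by -0.39 ± 0.22, and Csf1r, the receptor on which macrophage survival depends, by -0.23 ± 0.21. Adgre1, which encodes the F4/80 antigen, differed by -0.13 ± 0.23, and by 0.09 without cafeteria replicate 2. Aif1 (Iba1), an actin-bundling protein, differed by -0.39 ± 0.23 on a probe set whose type can cross-hybridise, and by 0.10 ± 0.06 on its other, much dimmer probe set, so its probe sets disagreed.

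The Fc receptor and adaptor genes were lower too, and Fcgr2b had the largest difference of any member. This inhibitory receptor for immunoglobulin G read 9.05, 8.69 and 8.02 in standard samples and 8.12 and 7.35 in cafeteria samples. The standard samples alone spanned more than 1 log2 unit and overlapped with cafeteria replicate 1. The difference was -0.85 ± 0.40, with an interval of -1.91 to 0.21, or 1.80-fold, from -1.24 without cafeteria replicate 1 to -0.46 without the other one (limma, adjusted p = 0.467 over all arrays). Tyrobp, the adaptor through which Trem2 signals, read 8.92, 9.28 and 8.54 in standard samples and 8.73 and 8.17 in cafeteria samples. Its difference was -0.46 ± 0.29, opposite in sign to that of Trem2. Fcer1g, the adaptor of the activating Fc receptors, differed by -0.50 ± 0.27 and the high-affinity receptor Fcgr1a by -0.35 ± 0.21. Fcgr3a held the same value, 5.04, on 4 of the 5 arrays and 5.26 on standard replicate 1, so it gave little information.

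The 3 chains of C1q, the recognition unit of the classical complement pathway that macrophages supply, differed by nearly equal amounts. C1qa read 11.29, 11.21 and 10.94 in standard samples and 10.98 and 10.58 in cafeteria samples, a difference of -0.36 ± 0.17. C1qb differed by -0.36 ± 0.27 and C1qc by -0.40 ± 0.19. The diets overlapped for each chain, since cafeteria replicate 1 lay above standard replicate 3.

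Of the integrin subunits, Itgb2 (CD18) differed by -0.57 ± 0.30. Its partner Itgam (CD11b), which neutrophils and natural killer cells also carry, read 8.63, 7.55 and 7.05 in standard samples and 7.67 and 7.49 in cafeteria samples. Standard replicate 1 was the highest array and standard replicate 3 the lowest, with both cafeteria samples between. The difference was -0.16 ± 0.50, and it was 0.28 without standard replicate 1. Cd14, a lipopolysaccharide co-receptor that other cells of fat also make, was nearly flat, from 10.43 to 10.50 over the 5 arrays.

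The enzymes that compete for arginine were the other members that were higher in cafeteria samples. Arginase 1 (Arg1), a marker of alternatively activated macrophages in rodents, read 7.33, 7.17 and 7.02 in standard samples and 8.21 and 7.42 in cafeteria samples. The lower cafeteria sample was only just above the highest standard one. The difference was 0.64 ± 0.26, with an interval of -0.05 to 1.34, or 1.56-fold (limma, adjusted p = 0.421; exact permutation test, two-sided, p = 0.1), from 0.25 without cafeteria replicate 1 to 1.04 without the other one. Inducible nitric oxide synthase (Nos2), a marker of classical activation, read 6.27, 6.11 and 6.40 in standard samples and 6.60 and 6.61 in cafeteria samples. Both cafeteria samples lay above the standard ones, by 0.34 ± 0.10 on average, and leaving out any 1 array gave 0.27 to 0.42 (limma, unadjusted p = 0.0226, adjusted p = 0.322; exact permutation test, two-sided, p = 0.2). So the marker enzymes of both activation states were higher, and neither was called after adjustment.

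**Figure D3:**
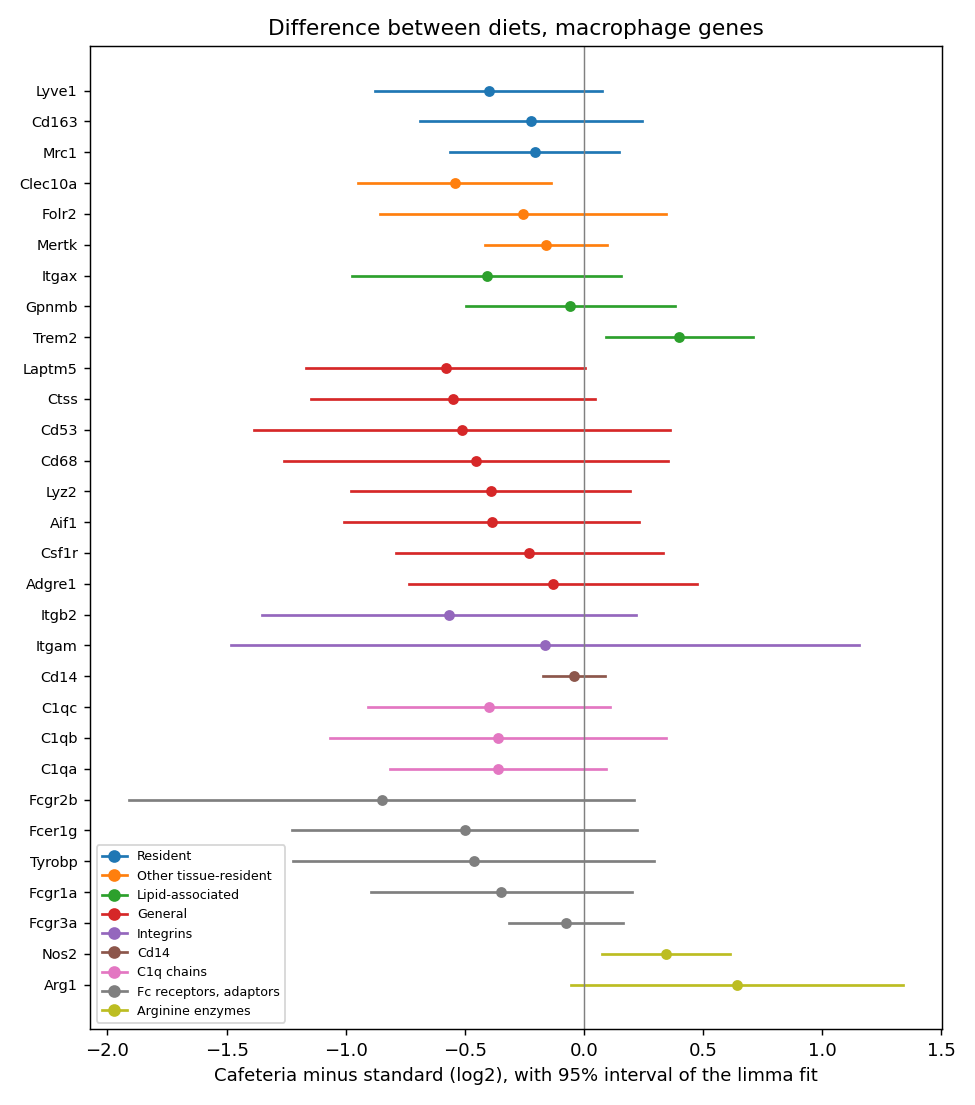
Difference between diets for each measured macrophage gene, cafeteria minus standard on the log2 scale; points are the differences, lines the 95% intervals of the limma fit, and colours the roles. The intervals of Clec10a, Trem2 and Nos2 leave out 0 before adjustment over all probe sets, and Fcgr2b and Itgam have the widest intervals.

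Other genes of macrophage biology were read from lists of related function. None of their genes was called after adjustment over all probe sets (limma, smallest adjusted p over these lists 0.253). The lipid-handling and lysosomal genes that accompany Trem2 in lipid-associated macrophages, several of which fat cells also make, had 10 of 18 tested genes higher and 8 lower, with a median of 0.04. Acp5, a lysosomal acid phosphatase of macrophages and osteoclasts, read 7.19, 7.96 and 7.05 in standard samples and 8.58 and 8.33 in cafeteria samples. It did not overlap between diets and differed by 1.06 ± 0.31 (limma, adjusted p = 0.322). Lipoprotein lipase (Lpl) differed by 0.30 ± 0.09 and the lipid droplet protein Plin2 by 0.18 ± 0.07. Galectin 3 (Lgals3) differed by -0.42 ± 0.12, the other way. These genes thus did not share a direction.

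A list of myeloid receptor signalling genes, which holds both activating and inhibitory ones, was lower for 11 of 13, with a median of -0.20. The scaffold Lcp2 (SLP-76) differed by -0.68 ± 0.24, the adaptor Hcst (DAP10) by -0.78 ± 0.37, the kinase Syk by -0.20 ± 0.12 and the phosphatase Inpp5d (SHIP1) by -0.10 ± 0.06. Without cafeteria replicate 2 the Hcst difference was -0.22. The phagocyte oxidase, which makes superoxide, had all 5 tested genes lower, with a median of -0.39, Ncf4 at -0.45 ± 0.13 and Rac2 at -0.85 ± 0.32. Its catalytic subunit Cybb differed by -0.24 ± 0.48 and Cyba by -0.39 ± 0.24, both with overlapping diets. Among Toll-like receptors and their partners 3 of 5 tested genes were lower, with a median of -0.04. The adaptor Myd88 differed by -0.21 ± 0.12, Tlr7 by -0.31 ± 0.32, Ly96 by 0.10 ± 0.16 and Tlr4 by -0.04 ± 0.12.

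Of the growth factors, chemokines and receptors that recruit and keep monocytes and macrophages, 11 of 14 tested were lower, with a median of -0.27. Il34, a second ligand of Csf1r, read 8.79, 8.98 and 8.79 in standard samples and 8.42 and 8.19 in cafeteria samples, without overlap. Its difference was -0.55 ± 0.11 (limma, unadjusted p = 0.00463, adjusted p = 0.253). The first ligand, Csf1, read 8.36 to 8.42 in standard samples and 8.42 to 8.43 in cafeteria samples. Cxcl12 differed by -0.42 ± 0.14, its receptor Cxcr4 by -0.47 ± 0.22 and the fractalkine gene Cx3cl1 by -0.27 ± 0.10. The monocyte attractant Ccl2 read 9.45, 9.18 and 8.00 in standard samples and 8.20 and 8.90 in cafeteria samples, which overlapped. Ccl2 and Csf1 were named after their values were seen.

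Activation genes beyond Arg1 and Nos2 did not share a direction either. Of 7 classical activation genes tested 3 were higher and 4 lower. Tnf differed by 0.25 ± 0.05 and Il12b by 0.29 ± 0.09, both below the array medians in every sample, while the interferon-induced chemokine Cxcl10 differed by -0.79 ± 0.47 and the transcription factor Irf5 by -0.22 ± 0.12. Of 10 alternative activation genes 4 were higher and 6 lower. The interleukin 4 receptor Il4r differed by -0.37 ± 0.12, the transcription factor Klf4 by 0.27 ± 0.11, Chi3l1 by -0.92 ± 0.40 and the transglutaminase Tgm2 by -0.15 ± 0.11. Genes for the uptake of dying cells had 5 of 9 higher, with a median of 0.01. The bridging protein Mfge8 differed by -0.25 ± 0.06, the integrin subunits Itgb5 and Itgav by 0.22 ± 0.10 and 0.28 ± 0.15, and Gas6, the ligand of Mertk, by -0.40 ± 0.25. The Gas6 difference rested on cafeteria replicate 2, without which it was 0.01. Transcription factors of myeloid cells had 5 of 9 lower, led by Irf8, needed for dendritic cells and monocytes, at -1.04 ± 0.30, and Mef2c at -0.61 ± 0.15, while Cebpa and Cebpb, which fat cells also use, differed by 0.27 ± 0.11 and 0.30 ± 0.14.

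Markers of other leukocytes were lower in cafeteria samples as well. The 7 pan-leukocyte genes tested were all lower, with a median of -0.37, close to the -0.36 of the macrophage genes, and the common leukocyte antigen Ptprc (CD45) read 9.08, 8.94 and 8.62 in standard samples and 8.61 and 8.06 in cafeteria samples. Its difference was -0.55 ± 0.22, and Arhgdib differed by -0.37 ± 0.13. T cell markers were lower for 10 of 10, with a median of -0.47, natural killer cell markers for 6 of 6 with -0.44, and mast cell markers for 9 of 9 with -0.60. B cell markers had 3 of 4 lower and 1 at an identical value on all arrays. The leading genes were Cd5 at -0.70 ± 0.28 and Cd8a at -0.46 ± 0.19 for T cells, Klrb1a at -1.15 ± 0.45 and Klrd1 at -0.64 ± 0.27 for natural killer cells, Gata2 at -0.60 ± 0.10 and Ms4a2 at -0.71 ± 0.30 for mast cells, and Blnk at -0.57 ± 0.26 and Cd79b at -0.42 ± 0.27 for B cells. Averaged over each list, T cell markers read 5.21 to 5.74 in cafeteria and 5.76 to 6.20 in standard samples, and mast cell markers 6.56 to 7.37 and 7.24 to 8.00. The pan-leukocyte list read 8.26 to 8.71 in cafeteria and 8.69 to 9.05 in standard samples, natural killer cell markers 4.89 to 5.37 and 5.41 to 5.79, and B cell markers 5.19 to 6.07 and 5.88 to 6.31. As for the macrophage genes, cafeteria replicate 2 was the lowest array on each of these 5 lists. No gene of these lists was called (limma, smallest adjusted p 0.246).

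Myeloid lists outside the members were less uniform. Monocyte markers had 4 of 6 lower, with Plac8 at -0.54 ± 0.27 and Vcan at 0.24 ± 0.17, and list means of 7.63 to 7.77 in cafeteria and 7.59 to 8.02 in standard samples. Dendritic cell markers had 3 of 5 lower, with Itgae at 0.26 ± 0.08 and Clec9a at -0.71 ± 0.28, and means of 6.49 to 6.74 and 6.64 to 6.90. Of 6 neutrophil markers measured only Cxcr2 passed the filter, reading 4.68 to 5.15, and S100a8 and S100a9, which define neutrophils, read 3.50 to 4.70 over all arrays.

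Fat cell markers went the other way. All 8 were higher in cafeteria samples with no overlap between diets, against 13.3% of all probe sets tested. The median difference was 0.34, and the list averaged 12.00 to 12.14 in cafeteria and 11.45 to 11.65 in standard samples. Leptin (Lep) differed by 1.59 ± 0.20 and Cidec, a lipid droplet protein, by 0.39 ± 0.11. Blood endothelial markers were lower for 6 of 6, with a median of -0.45, Egfl7 at -0.65 ± 0.12 and Emcn at -0.47 ± 0.12, and averaged 8.46 to 8.91 in cafeteria and 9.11 to 9.16 in standard samples. There cafeteria replicate 1 was the lowest array, unlike for the macrophage genes. Acinar cell genes of the pancreas averaged 8.68 in standard replicate 1 and 4.15 to 4.62 on the other arrays, with Cel at 8.35 and Pnliprp1 at 8.58 there. Standard replicate 1 was also the highest array for 20 of the 30 macrophage genes. Without it the median over the members was -0.27. The part of these other cell types in the macrophage values was not tested.

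**Figure D4:**
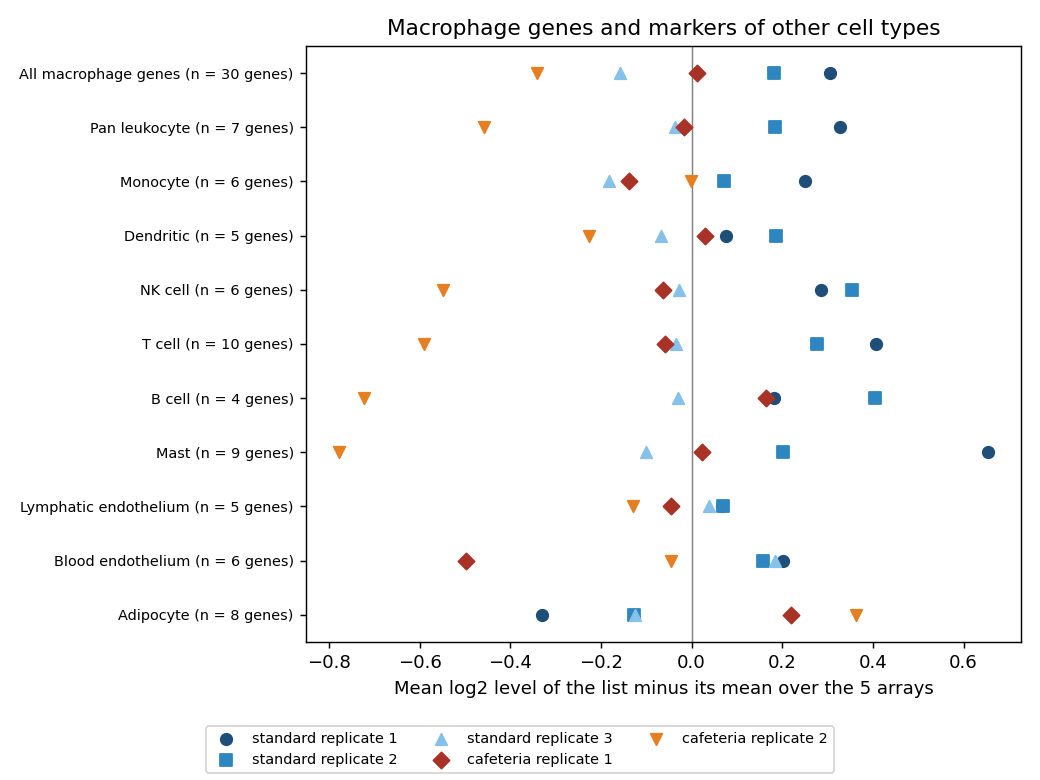
Mean log2 level of the macrophage genes and of 10 marker lists on each array, minus the mean of the 5 arrays; symbols and colours stand for arrays, and the number of genes averaged stands beside each name. Cafeteria replicate 2 was the lowest array for the macrophage genes and for the pan-leukocyte, T, B, natural killer and mast cell lists. It was also the lowest for the dendritic and lymphatic endothelium lists. The adipocyte list alone has both cafeteria arrays above all standard arrays.

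With 2 arrays against 3, the precision of every value above is limited. Pairwise correlations of the arrays were 0.987 to 0.994. Leaving out standard replicate 3 put 15 of 30 members (50%) past an unadjusted p of 0.05, 14 of them lower, against 10.7% of all probe sets, and still none past an adjusted p of 0.05 (limma, smallest 0.394). Leaving out standard replicate 1 or 2 put 1 member past an unadjusted p of 0.05 (limma). Standard replicate 3 was the lowest standard array for 24 of 30 members. The median over the members was -0.48 without it, -0.36 over all arrays and -0.17 without cafeteria replicate 2.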

How the data were processed

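The deposited values are log2 expression levels, 1 per probe set and array, which the authors made with RMA and affy according to the submitters' processing notes, without versions. Other steps, and any array batch, were not stated in the sources used here. RMA makes the array distributions alike, and its summary can give several arrays 1 identical value: for a pair of arrays, 11.7% to 14.7% of probe sets were identical, and no pair was merged. Groups follow the diet in the titles.

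Leaving out 57 control probe sets, the 21729 with a mean over 5 arrays above the 30th percentile were tested. The diets were contrasted in limma 3.58.1 (R 4.3.3, lmFit and eBayes), two-sided, with Benjamini-Hochberg adjustment over all of them and 0.05 as the threshold. A p-value sets a difference against the spread between these samples only, with variances moderated over the probe sets tested. The fit was also run on simulated arrays with independent errors, to check that it recovered differences of known size on average. Shifts shared by many genes of an array were not simulated. Symbols came from GEO's platform annotation (1 symbol on 20826 probe sets, several on 436, none on 9780), and all 30 members kept theirs in the RefSeq gene table. Promoters came from RefSeq windows of GRCr8; the array states no build, so no other coordinates are given. Figures used matplotlib 3.10.9 in Python 3.11.15.

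Named were every measured member, up to 4 genes with the smallest p of each list of related function, up to 2 of each cell type list, and Ptprc. Outside this rule, Ccl2 and Csf1 were named, and so were Flt4, S100a8 and S100a9, which were below the filter. The members and lists were chosen with earlier results of these data known. Lists are described by counts and medians only. Alternatives covered filters, normalizations, variance models, probe sets, array weights, a replicate block, and each array left out in turn.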

Additional observations from a re-analysis of the deposited data

How the results depend on the processing

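No probe set and no macrophage member passed an adjusted p of 0.05 in any of the fits run, with limma throughout. Leaving out 1 array at a time gave 1981 to 4171 probe sets past an unadjusted p of 0.05, and 1 to 15 members, against 2754 and 3 over all arrays. The number of members was 6 with quantile normalization and 5 with cyclic loess. The replicate numbers of the titles are not said to pair samples. Over all probe sets tested, same-numbered arrays deviated from their diet means with correlations of 0.08 and -0.04 for numbers 1 and 2. With 2 cafeteria arrays these deviations mirror each other by construction, so the correlations do not settle whether samples were paired. With the replicate block, which by its construction leaves standard replicate 3 without weight in the comparison, 18 members passed the unadjusted p, 16 of them lower, against 10.2% of all probe sets. Leaving out 1 array moved the median of the resident markers between -0.49 and -0.17. The differences that turned sign did so for Cd163 (-0.49 to 0.044), Gpnmb (-0.24 to 0.13), Adgre1 (-0.34 to 0.086) and Itgam (-0.51 to 0.28) with 1 array left out, and for Aif1 (0.10) with probe sets of possible cross-hybridization left out, where another probe set stands for the gene. The other causes were not tested. Of 419 alternative values of single members, 6 had the opposite sign and 1, Fcgr3a without standard replicate 1, was 0; since no fit called any probe set, the threshold says nothing about their stability. How far a probe's signal stood above background is not in the values used here.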
